A study of Mus musculus with 12 samples.

Results

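Thpok, listed as Zbtb7b, and 8 genes beside it on mouse chromosome 3 were followed through the RNA of pre-selection thymocytes with altered Bcl11b. The set was defined by symbol as Zbtb7b, Adam15, Dcst1, Dcst2, Lenep, Flad1, Cks1b, Shc1 and Pygo2. Of these 9 genes, 8 were matched among the 23234 features of the table, and Dcst2 was not analysed here. The question was whether the rise of Thpok in Bcl11b mutant cells stayed within that gene or reached the genes around it.

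Thpok is a zinc-finger transcription factor of CD4 helper T cells. It is off in CD4+CD8+ double-positive (DP) thymocytes before positive selection, comes on in cells that see MHC class II, and blocks the CD8 cytotoxic programme. A silencer upstream of the gene, bound by Runx proteins, keeps Thpok off in DP thymocytes and in CD8 cells. Bcl11b is a zinc-finger factor needed for T-lineage commitment, and a change that follows its loss may be direct or indirect, which RNA levels alone do not separate.

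RNA was sequenced from cells labelled as CD24hiTCRβlo pre-selection DP thymocytes of C57BL/6 mice. The extraction protocol in the same labels instead describes sorted NKT cells without CD4 and CD8, so the sources disagree on which cells were sorted, and markers of both are given here. The groups were wild-type newborn thymus (n = 5 libraries), Bcl11bm/m newborn thymus (n = 3, titled HM) and Bcl11bfl/fl:Cd4-Cre thymus (n = 4, titled cKO), and the titles HM and cKO are used below. Bcl11bm is a germline hypomorphic allele whose frameshift yields a truncated protein without the final zinc finger, whereas in Bcl11bfl/fl:Cd4-Cre mice the Cre recombinase driven by the Cd4 promoter removes Bcl11b from about the DP stage. The age of the Cd4-Cre mice is not given for these libraries. The study's methods give an age of some weeks for mice used in flow cytometry, without naming the RNA samples. Age and genotype therefore cannot be told apart in that comparison. The sample descriptions name other genotypes than the titles: those of the wild-type libraries name Bcl11bm/m and those of the cKO libraries Bcl11b+/+. The titles, which match the series design, were followed, so the direction of each comparison rests on them. Both mutants are compared with the same 5 wild-type libraries, and nothing states that libraries of a group came from separate animals, so the tests measure the spread between these libraries, which may be partly technical.

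Bcl11b itself was listed at 132 to 292 FPKM (sequenced fragments scaled to transcript length and library size) in wild-type, 430 to 482 in HM and 115 to 140 in cKO libraries. These gene-level values cannot check either allele, since transcript from outside the altered part still counts. The 10 DP markers, among them Rag1, Rag2, Cd4 and Cd8a, were all above 1 FPKM on average in every group, with summed levels of 6962 to 9006, 5449 to 6334 and 6160 to 8232 FPKM in the same order. Depth, estimated from the step size of low FPKM values, was 3770000 to 6450000 fragments in wild-type, 2570000 to 3960000 in HM and 10220000 to 43470000 in cKO libraries, so low genes were measured most coarsely in HM.

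The sequences below show the Thpok silencer core, the Thpok starts and the start of Cks1b. Their part in the changes of RNA level was not tested. The Thpok silencer core, the 85-base stretch that the study's methods give as its pull-down oligonucleotide, was matched to the mouse genome (NCBIM37) at chr3:89200161-89200245 on the minus strand. It lies 1463 bases upstream of the Thpok start annotated in GENCODE vM1. That is inside the body of the antisense gene Gm15417 and outside the exons of both genes. The RefSeq starts below are on another build, and the distance is not measured from them. Capitals mark a Runx recognition match, searched as ACCACA and ACCGCA on both strands.
Thpok silencer core: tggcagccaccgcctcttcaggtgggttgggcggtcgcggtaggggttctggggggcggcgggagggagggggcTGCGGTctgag

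Thpok has 2 starts in RefSeq (build GRCm38.p6), whose 300-base windows around the start lie 5707 bases apart. The upstream one is at chr3:89393329-89393628 and the downstream one at chr3:89387622-89387921, both on the minus strand.
Thpok upstream start: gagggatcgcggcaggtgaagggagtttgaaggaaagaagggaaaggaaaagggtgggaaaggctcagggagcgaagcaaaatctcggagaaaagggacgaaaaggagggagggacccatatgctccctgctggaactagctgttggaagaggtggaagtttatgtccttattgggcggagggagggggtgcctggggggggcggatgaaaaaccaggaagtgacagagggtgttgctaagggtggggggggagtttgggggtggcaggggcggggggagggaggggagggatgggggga
Thpok downstream start: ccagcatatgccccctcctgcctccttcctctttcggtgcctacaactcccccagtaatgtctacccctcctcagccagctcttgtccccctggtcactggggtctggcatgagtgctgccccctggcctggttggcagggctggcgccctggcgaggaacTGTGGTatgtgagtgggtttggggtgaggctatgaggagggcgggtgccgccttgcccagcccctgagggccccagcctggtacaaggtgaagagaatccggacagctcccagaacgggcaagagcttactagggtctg

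The upstream Thpok window held 8 CpG dinucleotides and 59.7% G or C and none of the motif letters, and the downstream window held 7 CpG dinucleotides, 63.3% G or C and 1 match, written TGTGGT, the reverse complement of ACCACA. Across all 32851 windows of the same length, 16.8% held ACCACA and 6.45% held ACCGCA on either strand, or 22.4% for either motif. Of the 13 windows of the 9 genes, 3 held a match, in Thpok, Adam15 and Pygo2. The Cks1b start is shown because it is shared by genes that behaved differently. Cks1b on the minus strand and Shc1 on the plus strand run head to head, and the Cks1b window, chr3:89418242-89418541, shares 241 bases with the first window of Shc1.
Cks1b start: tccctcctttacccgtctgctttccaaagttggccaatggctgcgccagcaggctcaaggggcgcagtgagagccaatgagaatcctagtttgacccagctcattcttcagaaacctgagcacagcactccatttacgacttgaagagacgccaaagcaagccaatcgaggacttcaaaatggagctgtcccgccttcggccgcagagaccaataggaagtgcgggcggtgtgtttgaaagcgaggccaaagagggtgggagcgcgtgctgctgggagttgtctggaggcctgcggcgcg

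In wild-type cells Thpok was at the edge of detection. Wild-type libraries 1 to 5 had 0, 0.0463, 0.216, 0 and 0.0471 FPKM of it, which corresponds to about 0, 1, 3, 0 and 1 fragments. In HM libraries 1 to 3 Thpok stood at 50.4, 46.5 and 41.1 FPKM. In cKO libraries 1 to 4 it stood at 33.1, 9.44, 56.6 and 23.8 FPKM. Each mutant library was far above each wild-type library, and the cKO libraries spread widely around the tight HM group.

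Thpok rose by 5.47 ± 0.12 (SE) on the log2(FPKM + 1) scale in HM (limma, adjusted p = 2.85e-07) and by 4.66 ± 0.39 in cKO cells (adjusted p = 0.000659). The added 1 FPKM understates the change of a gene so low in the controls. Against the highest limit that 3 fragments allow in a single wild-type library, 0.219 FPKM, the mean of HM was at least 210-fold higher and that of cKO at least 141-fold higher. The lowest library was 188-fold above that limit in HM and 43.2-fold above it in cKO. The floor covers counting error only. Thpok was called higher under each alternative processing and without each single library. Over all 10780 features tested, 17.3% were called in HM (1069, or 9.92%, higher and 797 lower) and 14.5% in cKO (501, or 4.65%, higher and 1063 lower). With median-ratio scaling the second split became 834 higher and 966 lower, and the first turned to 1204 higher and 1262 lower with quantile normalization and to 1631 and 1973 with library quality weights, with 1264 and 1137 under median-ratio scaling.

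Between the mutants, Thpok was not separated. Its mean was 46.0 ± 4.65 FPKM (SD, n = 3) in HM and 30.7 ± 19.8 (n = 4) in cKO. The log2 difference was 0.81, with a 95% interval from -0.38 to 2.01 (adjusted p = 0.335), and the ranges overlapped. Leaving out single libraries moved the difference between 0.36 and 1.18, without a call. Here 10.2% of features were called (822 higher in HM, 280 lower), or 565 higher and 531 lower with median-ratio scaling. The highest Thpok value in cKO was 5.99 times the lowest, against 1.23 times in HM. In bulk RNA, fewer cells making a transcript and less of it per cell cannot be told apart.

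**Figure D1:**
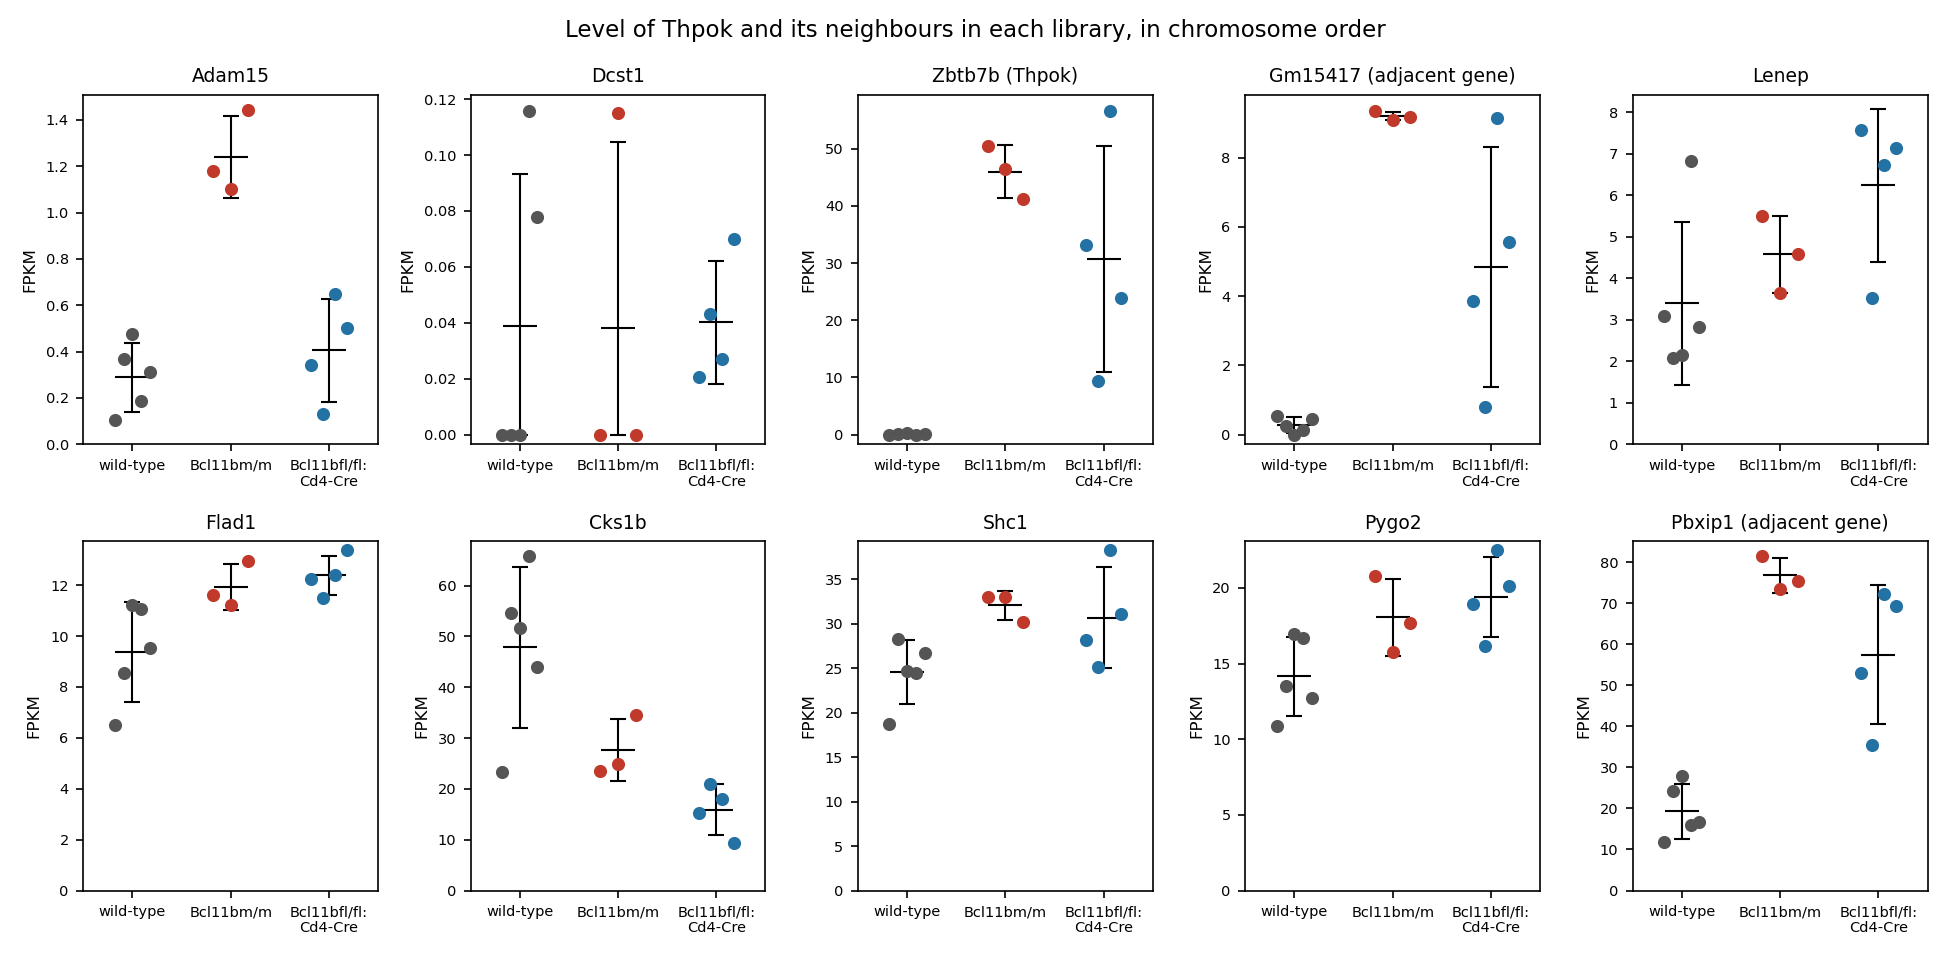
Level in FPKM of 8 genes of the set and of the adjacent genes Gm15417 and Pbxip1, each on its own linear scale, in every wild-type, HM (Bcl11bm/m) and cKO (Bcl11bfl/fl:Cd4-Cre) library (points), with the group mean and SD (bars, cut at 0). Thpok, Gm15417 and Pbxip1 separate both mutants from wild-type, whereas Cks1b is lowest in cKO and Flad1, Shc1 and Pygo2 lie within a narrow range.

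The order of levels within the set differed between groups in the places of Thpok and Cks1b. In wild-type, Cks1b led with a mean of 47.9 FPKM, before Shc1 at 24.6, Pygo2 at 14.2, Flad1 at 9.38, Lenep at 3.40, Adam15 at 0.288, Thpok at 0.0618 and Dcst1 at 0.0387. The ranges of Cks1b and Shc1, of Pygo2, Flad1 and Lenep in turn, and of Adam15, Thpok and Dcst1 in turn overlapped. In HM Thpok was first, its lowest library above the highest of Shc1 at 33.0 FPKM. In cKO Thpok was level with Shc1, each with a mean of 30.7 FPKM and overlapping ranges. Cks1b stood after Shc1 in HM (27.7 against 32.1 FPKM, with overlapping ranges), and in cKO, at 15.9 FPKM, it was wholly below Shc1 and after Pygo2 at 19.4, whose range it overlapped.

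Downstream of Thpok, on the side of its transcription, lie Dcst1 and Adam15. Dcst1, a gene of the DC-STAMP family of membrane proteins that act in sperm-egg fusion, had at most 0.116 FPKM in any library, about 0 to 2 fragments, so a change was not detectable at this depth. Adam15 is a membrane metalloprotease, for which wild-type libraries 1 to 5 had 0.103, 0.367, 0.475, 0.185 and 0.311 FPKM. In HM libraries 1 to 3 it was at 1.180, 1.101 and 1.440 FPKM, each above every wild-type library. In cKO libraries 1 to 4 it was at 0.343, 0.131, 0.647 and 0.503 FPKM, overlapping wild-type.

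Both genes fell under the filter of a mean of 1 FPKM over the 12 libraries and had no test in the main analysis. Without the filter Adam15 was higher in HM than in wild-type by 0.80 on the log2(FPKM + 1) scale (limma, adjusted p = 0.00441), where 11.3% of 17153 features were called. For so low a gene the size depends on the added 1 FPKM, and with a pseudocount of 0.1 it was 1.87 (limma, adjusted p = 0.0222). Adam15 was not called in cKO (0.12, adjusted p = 0.614), where 7.29% were called. Set directly against each other without the filter, the mutants differed by 0.68 (adjusted p = 0.0409), where 7.06% were called. With a pseudocount of 0.1 the difference was 1.53, but the adjusted p was 0.091. The values of HM rest on about 12 to 22 fragments a library.

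Upstream of Thpok, the nearest listed genes of the set are Lenep and Flad1, whose starts lie 8.02 and 17.1 kb away. Lenep encodes a lens epithelial protein and Flad1 the enzyme that makes FAD from FMN. Lenep ranged from 2.09 to 6.83 FPKM in wild-type (median 2.83), from 3.65 to 5.51 in HM and from 3.53 to 7.58 in cKO. Lenep lies within Flad1 on the same strand, with 1790 of its 1806 exonic bases shared, so its values are uncertain. Its log2 difference from wild-type was 0.42 (95% interval -0.28 to 1.12, adjusted p = 0.406) in HM and 0.77 (0.11 to 1.42, adjusted p = 0.11) in cKO. Without wild-type library 4, its highest control at 6.83 FPKM, the adjusted p was 0.0427 and 0.0248.

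Flad1 was at 6.51, 8.55, 11.2, 11.1 and 9.52 FPKM in wild-type libraries 1 to 5. It was at 11.60, 11.23 and 12.96 FPKM in HM and at 12.3, 11.5, 12.4 and 13.4 FPKM in cKO libraries. The lowest cKO library lay just above the highest wild-type one, as it did for 5.44% of tested features, and no call was made (0.39, 95% interval 0.05 to 0.73, adjusted p = 0.117). In HM the difference was 0.34 (adjusted p = 0.25).

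Shc1, which encodes an adaptor between receptor tyrosine kinases and Ras, and Pygo2, a PHD-finger co-factor of β-catenin, lie 23.7 and 35.4 kb from the Thpok start. Shc1 was at 18.8, 28.3, 24.7, 24.5 and 26.8 FPKM in wild-type, at 33.0, 33.0 and 30.2 in HM and at 28.2, 25.1, 38.3 and 31.1 in cKO libraries. Every HM library was above every wild-type library for Shc1, as for 14.6% of features, with a log2 difference of 0.38 (95% interval 0.07 to 0.70, adjusted p = 0.1). In cKO it was 0.30 (-0.04 to 0.64, adjusted p = 0.214). Pygo2 ranged from 10.9 to 16.9 FPKM in wild-type (median 13.5), 15.7 to 20.8 in HM and 16.1 to 22.5 in cKO. Its log2 difference was 0.34 (-0.05 to 0.73, adjusted p = 0.219) and 0.44 (0.10 to 0.78, adjusted p = 0.0817). The cKO values of Flad1 and Pygo2 passed the threshold under median-ratio scaling, with adjusted p = 0.0165 and 0.0153, as did Shc1 in HM with 0.0387. That scaling moved the median log2 change of all features in cKO from -0.09 to 0.00. The upper ends of the 95% intervals of Flad1, Shc1 and Pygo2 against wild-type lay between 0.64 and 0.78, under the lower ends of those of Thpok at 5.18 and 3.78.

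Cks1b was the only one of the 5 tested neighbours that passed the test, and it fell. Cks1b is a small protein that binds cyclin-dependent kinases and aids the destruction of p27. It was at 23.2, 54.6, 51.6, 65.9 and 44.0 FPKM in wild-type libraries 1 to 5. It was at 23.4, 25.0 and 34.6 FPKM in HM and at 15.3, 21.0, 17.9 and 9.31 FPKM in cKO libraries. All 4 cKO libraries were below all 5 wild-type libraries, as for 10.6% of features. Within wild-type, library 1 was low and library 4 high.

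Cks1b fell by 1.51 ± 0.30 (SE) on the log2 scale in cKO (limma, adjusted p = 0.0119), where 9.86% of features were called lower. In HM the difference was -0.71 (95% interval -1.43 to 0.00, adjusted p = 0.165). Without wild-type library 1 it was -0.95 (adjusted p = 0.0113). The mutants did not differ from each other at the threshold (0.80 higher in HM, 95% interval 0.17 to 1.42, adjusted p = 0.103).

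Cks1b and Shc1, whose starts lie 60 bases apart, moved apart in both mutants. The log2 level of Cks1b minus that of Shc1 lay between 0.29 and 1.39 in wild-type, between -0.48 and 0.19 in HM and between -1.64 and -0.24 in cKO libraries. The shift of the mean was -1.095 in HM and -1.81 in cKO. The pair was chosen after its values were seen, so the shift is a description with no test.

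Of the 6 genes with a test, 1 was called in HM (17.3% of all features were), 2 in cKO (14.5%) and none between the mutants (10.2%). Thpok aside, 0 of 5 neighbours were called in HM by limma, with 1 at an unadjusted p under 0.05, Shc1, as for 30.3% of all features. In cKO 1 of 5 was called and 4 had an unadjusted p under 0.05, as did 30.6% of all features. Between the mutants 0 of 6 were called, with Cks1b alone at an unadjusted p under 0.05, where 29.1% of all features were. The median log2 difference of the 5 neighbours was 0.34 in HM and 0.39 in cKO, beside -0.02 and -0.09 over all features.

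Thpok's own change was tested against that of each neighbour. In HM it exceeded the change of the 5 tested neighbours by 5.05 to 6.18 on the log2 scale, and in cKO by 3.89 to 6.16. Each difference passed the limma threshold. The same held for 99.5% and 99.7% of all features, so the neighbours are like nearly any other gene in this respect. Every difference contains the same Thpok values, so the p-values are not independent. The variance pooled over features repeats the Thpok spread, so the p-values against wild-type are also too small and are left out. Between the mutants 0 of 5 neighbours differed from Thpok in their change (0.02 to 1.16, adjusted p 0.608 to 0.986), where 1.17% of features did.

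**Figure D2:**
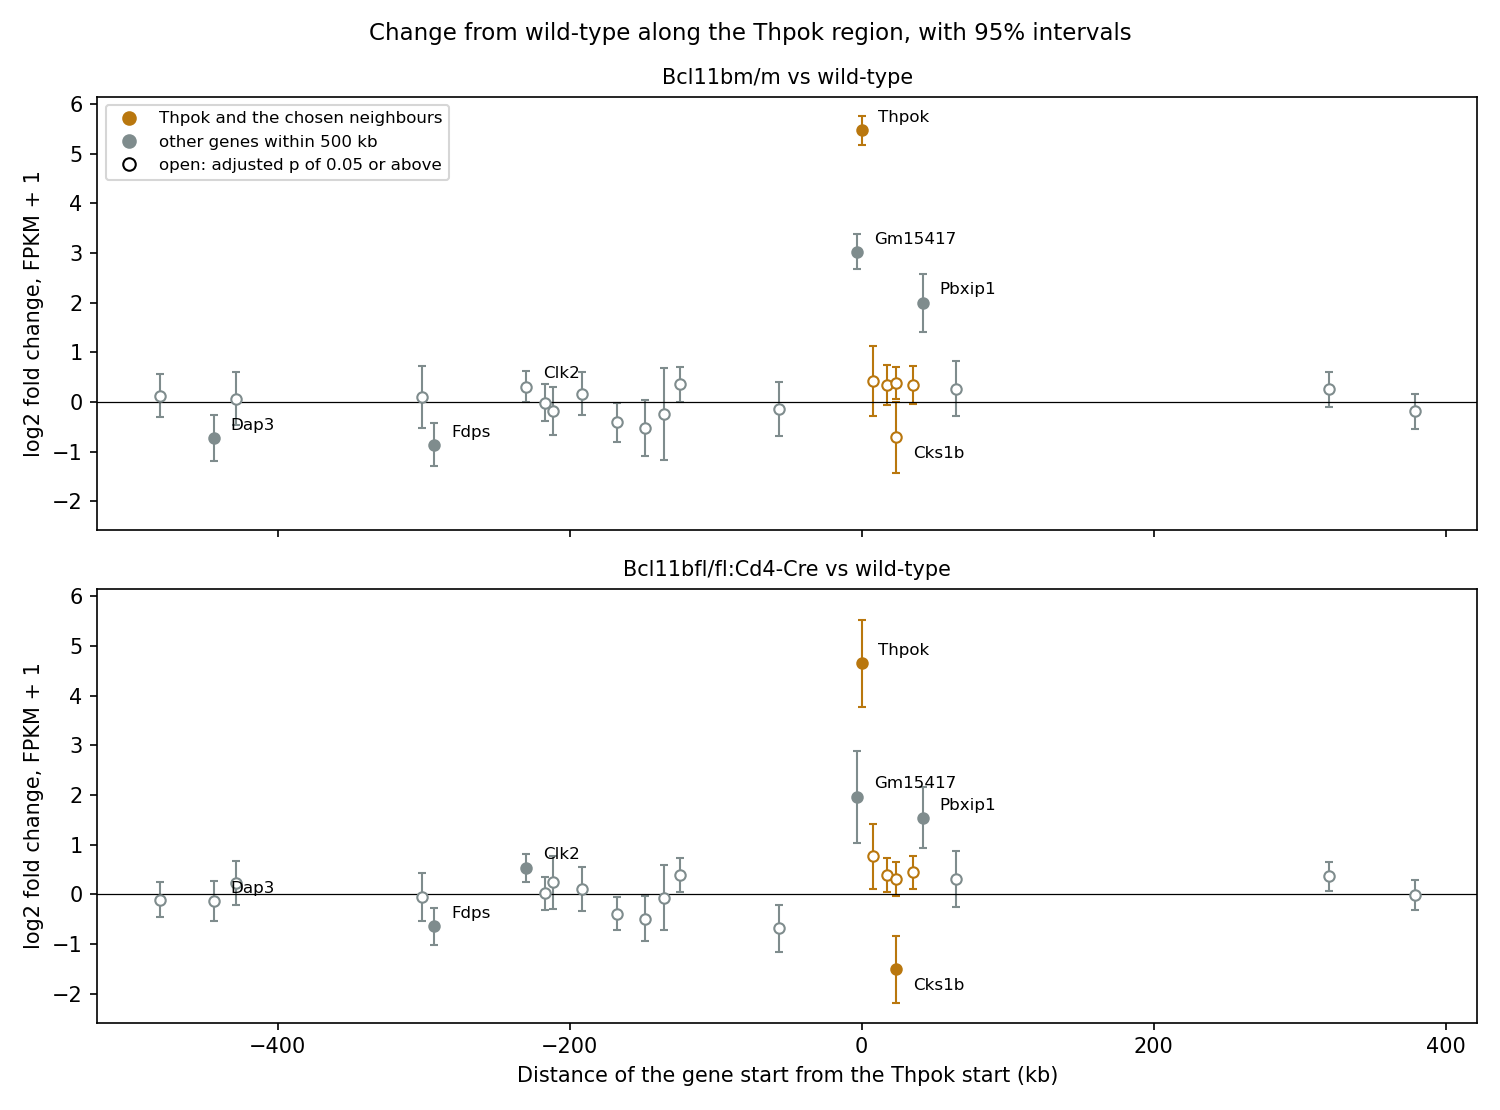
Log2 fold change from wild-type, on FPKM + 1, with its 95% interval, against the distance of each gene's start from that of Thpok in kb, for HM (Bcl11bm/m, top) and cKO (Bcl11bfl/fl:Cd4-Cre, bottom). Filled points passed the test. Thpok stands highest at 5.47 and 4.66, followed by Gm15417 and Pbxip1. The 5 tested genes of the set between Thpok and Pbxip1 lie between -0.71 and 0.42 in HM and between -1.51 and 0.77 in cKO, where Cks1b was called lower.

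To see whether the chosen genes stand for the region, all listed genes that start within 500 kb of Thpok were examined. Of 46 annotated genes there, 39 were listed, 31 of them outside the set, and 19 of these passed the filter. In HM 2 were called higher and 2 lower, or 4 of 19, and in cKO 3 higher and 1 lower, beside the 17.3% and 14.5% of all features. The median log2 difference of the 19 was 0.07 and 0.02. The genes called higher in both mutants were Gm15417, which overlaps the 5′ part of Thpok, and Pbxip1, the next gene after Pygo2.

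Gm15417 is a non-coding gene on the plus strand, opposite to Thpok, at chr3:89195772-89202701 (NCBIM37), where Thpok spans chr3:89181566-89198698. Wild-type libraries 1 to 5 had 0.528, 0.256, 0, 0.130 and 0.458 FPKM, against 9.35, 9.10 and 9.19 in HM and 3.85, 0.811, 9.14 and 5.56 in cKO libraries. The lowest cKO library for Gm15417 was library 2 and the highest library 3, as for Thpok. Gm15417 rose by 3.02 ± 0.15 (SE) in HM (limma, adjusted p = 1.15e-05) and by 1.97 ± 0.42 in cKO (adjusted p = 0.0142). Its wild-type values rest on about 0 to 3.1 fragments a library, so the size of the rise depends on the added 1 FPKM. With a pseudocount of 0.1 the rise was 4.91 in HM and 3.58 in cKO.

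On the log2(FPKM + 1) scale the rise of Gm15417 was smaller than that of Thpok. Both genes were at the edge of detection in wild-type, so the difference mostly restates their levels in the mutants. The log2 level of Thpok minus that of Gm15417 was -0.61 to 0.28 in wild-type, 2.05 to 2.31 in HM and 1.92 to 2.81 in cKO, a shift of 2.45 and 2.69. Both shifts passed the limma threshold, but 99.5% and 99.7% of all features passed that test, so it says little about this pair. Its p-values are too small for the reason given above and are left out. The genes share 116 exonic bases, all in 1 of the 10 annotated Thpok transcripts. If those bases carried Thpok's mean level, and strand were not used in counting, they would hold 56.1% to 67.6% of the fragments behind Gm15417 in HM and 53.7% to 146% in cKO libraries. The labels and the study's methods describe different library kits, 1 of them strand-specific, and whether counting used strand is not given in the sources used here, so Gm15417 and Thpok reads cannot be told apart.

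Pbxip1 encodes a protein that binds the PBX homeodomain factors. It spans chr3:89240628-89254874 on the plus strand and starts 41.9 kb from the Thpok start. Pbxip1 was at 11.7, 24.3, 27.9, 15.8 and 16.7 FPKM in wild-type libraries 1 to 5. It was at 81.6, 73.4 and 75.4 FPKM in HM and at 53.1, 35.5, 72.2 and 69.3 FPKM in cKO libraries. Both mutants lay wholly above wild-type.

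Pbxip1 rose by 2.0 ± 0.25 (SE) in HM (limma, adjusted p = 0.00134) and by 1.54 ± 0.28 in cKO (adjusted p = 0.00787). Between the mutants the difference was 0.46 (95% interval -0.09 to 1.02, adjusted p = 0.245), or 0.25 without cKO library 2. Pygo2, which ends just before Pbxip1, was not called in the main analysis. The log2 level of Pbxip1 minus that of Pygo2 was -0.07 to 0.80 in wild-type, 1.92 to 2.15 in HM and 1.09 to 1.73 in cKO, a shift of 1.659 and 1.099. This pair too was chosen after its values were seen and has no test. Lenep, Flad1, Cks1b, Shc1 and Pygo2 lie between Thpok and Pbxip1, and none was called higher in the main analysis. Under other scalings or quality weights some passed the threshold as higher. Flad1 and Pygo2 did so in cKO with median-ratio scaling, quantile normalization and quality weights. Shc1 did so with quantile normalization in both mutants and with median-ratio scaling in HM, and Lenep with quality weights in cKO.

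**Figure D3:**
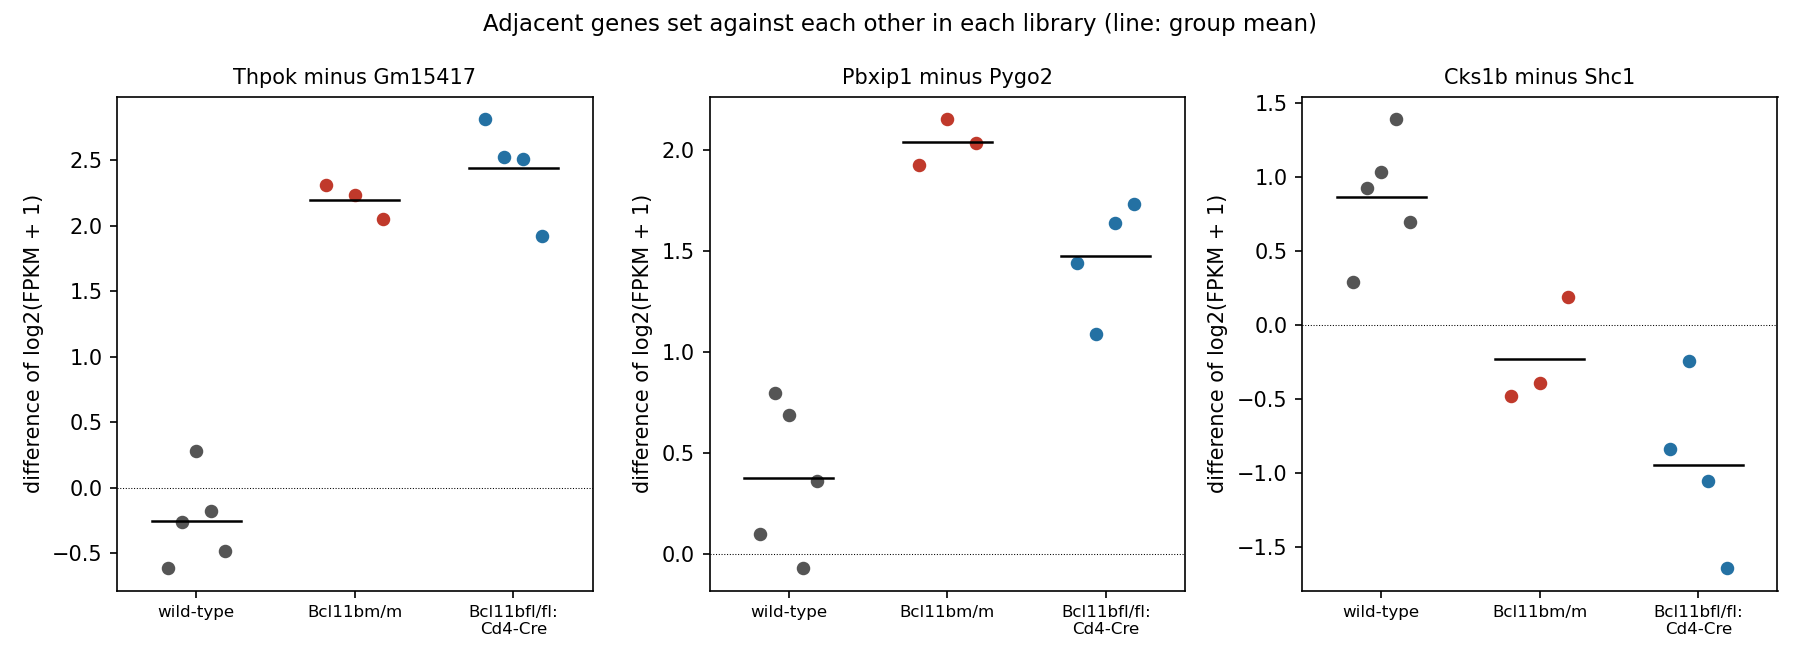
Difference of log2(FPKM + 1) between adjacent genes in every library of the 3 groups: Thpok minus Gm15417, Pbxip1 minus Pygo2, and Cks1b minus Shc1 (points; line, group mean). The wild-type points are separate from those of both mutants in each panel, lower in the first 2 pairs and higher for Cks1b minus Shc1.

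The other called genes of the region start farther from Thpok than Adam15 and Pbxip1 do. Fdps, an enzyme of isoprenoid synthesis, fell by 0.87 in HM (adjusted p = 0.0157) and by 0.65 in cKO (adjusted p = 0.0295). Dap3, a protein of the mitochondrial ribosome, fell by 0.73 in HM (adjusted p = 0.0405) and was the 1 called of 19 between the mutants, lower by 0.59 in HM (adjusted p = 0.0329). Clk2, a kinase of splicing factors, rose by 0.54 in cKO (adjusted p = 0.0221). Leaving out single libraries ended each of these calls. Without wild-type library 2, for example, the adjusted p was 0.0687 for Fdps and 0.0563 for Clk2 in cKO and 0.0751 for Dap3 in HM.

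Thpok's regulators and targets, 19 listed genes, gave 4 calls among 16 tested in HM and 3 in cKO (17.3% and 14.5% of all features were called), with medians of -0.09 and -0.14 on the log2 scale. Of the 5 known activators, Gata3, Tox, Myb, Tcf7 and Lef1, none was called against wild-type, with 3 at an unadjusted p under 0.05 in HM and 1 in cKO, beside 30.3% and 30.6% of all features. Gata3 was at 54.8 FPKM in HM and 36.3 in wild-type on average (0.60, adjusted p = 0.0627). Lef1 was higher in HM than in cKO by 0.67 (adjusted p = 0.0161).

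Of the genes whose proteins act on the silencer, Cbfb, the partner of Runx proteins, fell by 0.65 in cKO (adjusted p = 0.0208), and Runx1 was higher in HM than in cKO by 0.58 (adjusted p = 0.0193). Runx3, the factor of the CD8 lineage that Thpok opposes, rose along with Thpok. Its mean was 4.15 FPKM in wild-type, 16.3 in HM and 21.8 in cKO, a log2 change of 1.82 (adjusted p = 0.00437) and 2.11 (adjusted p = 0.00581). Prf1, which encodes perforin, was higher in HM (0.86, adjusted p = 0.0264) and fell by 0.80 in cKO (adjusted p = 0.0257), and the mutants differed by 1.65 (adjusted p = 0.00232). Cd4 fell by 0.99 and Cd8b1 by 0.96 in HM (adjusted p = 0.00215 and 0.025). Socs1 and Socs3, proposed mediators of Thpok action, were not called (adjusted p from 0.495 to 0.863). Leaving out single libraries ended the calls of Cbfb, Runx1, Cd8b1 and Lef1 and those of Prf1 against wild-type, and left those of Runx3, Cd4 and Prf1 between the mutants.

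Genes with the pattern most like Thpok lie elsewhere in the genome. Over the 12 libraries and 10591 features, with short RNAs left out, the highest Pearson correlations with Thpok on the log2 scale were those of Appl2 (r = 0.996), Cxcr5 (0.986), 2900026A02Rik (0.984), Atp8b4 (0.983) and Itga9 (0.982). Appl2 averaged 0.144 FPKM in wild-type, 13.7 in HM and 9.72 in cKO, and Cxcr5 0.344, 231 and 61.7. Gm15417 (0.951) and Pbxip1 (0.951) ranked 37 and 40. Shc1 had r = 0.765 at rank 698, Pygo2 0.750 at 768, Flad1 0.705 at 962, Lenep 0.607 at 1372 and Cks1b -0.69 at 9346. Adam15 (0.689) and Dcst1 (-0.02) fell under the filter and have no rank. The libraries fall into groups, so these values mostly restate the difference between genotypes.

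Within the cKO group, library 2 had the lowest value for 8 of 9 genes (the set without Dcst1, with Gm15417 and Pbxip1), the exception being Cks1b, and library 3 the highest for 6 of 9. In wild-type, library 1 alone was lowest for 6 of 9, and for Thpok it was tied at 0 with library 4. The scale of a library moves all its genes. The size factor of cKO library 2 was 0.964, within the 0.924 to 0.981 of the group, whereas that of wild-type library 1 was 0.872, under the 1.03 to 1.16 of the other wild-type libraries. Its part in the differences from wild-type was not tested, beyond the median-ratio scaling and the fits without that library.

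Markers of later T cells were examined because Thpok is on in selected CD4 cells. The 8 post-selection markers summed to 96.8 to 163 FPKM in wild-type, 238 to 354 in HM and 74.6 to 191 in cKO libraries, with none at 0 throughout a group. Within the list, S1pr1, Klf2 and Il7r were higher in every mutant library than in every wild-type library, Klf2 at 1.07 to 2.61 FPKM in wild-type, 10.1 to 31.9 in HM and 5.92 to 34.8 in cKO. Cd40lg, a marker of helper cells, was at most 0.435 FPKM in all libraries, and Cd69 was at 14.4 to 35.1, 13.5 to 16.5 and 3.48 to 14.8 FPKM. In cKO library 2, with a sum of 102 FPKM inside the wild-type range, Thpok was 9.44 FPKM.

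The 4 NKT and NK markers summed to 0 to 0.614 FPKM in wild-type, 1.001 to 7.51 in HM and 0.499 to 27.4 in cKO libraries, mostly through Klrb1c. Zbtb16, the defining factor of NKT cells, was at 0 to 0.0112 FPKM in wild-type, 0 to 0.149 in HM and 0.062 to 0.917 in cKO, so that every cKO library was above every wild-type library. Klrd1, a receptor of NK cells, was listed at 0 in all wild-type libraries, at 0 to 0.552 FPKM in HM and at 0.111 to 5.495 in cKO, and Ncr1 was at 0 in wild-type and cKO. In the cKO libraries the order of this sum, 3, 1, 4 and 2 from the highest, was that of Thpok. In HM, library 1 had the highest Thpok and the lowest sum. B cell markers summed to 14.6 to 22.0, 9.62 to 38.3 and 12.9 to 39.1 FPKM, and Pax5 was at most 0.562. Myeloid markers summed to 5.44 to 11.8, 9.08 to 45.4 and 0.791 to 2.53, and erythroid ones to 1.77 to 33.8, 10.2 to 29.3 and 0.619 to 4.85. The part of such cells in the rise of Thpok, Gm15417, Pbxip1 and Runx3 was not tested.

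**Figure D4:**
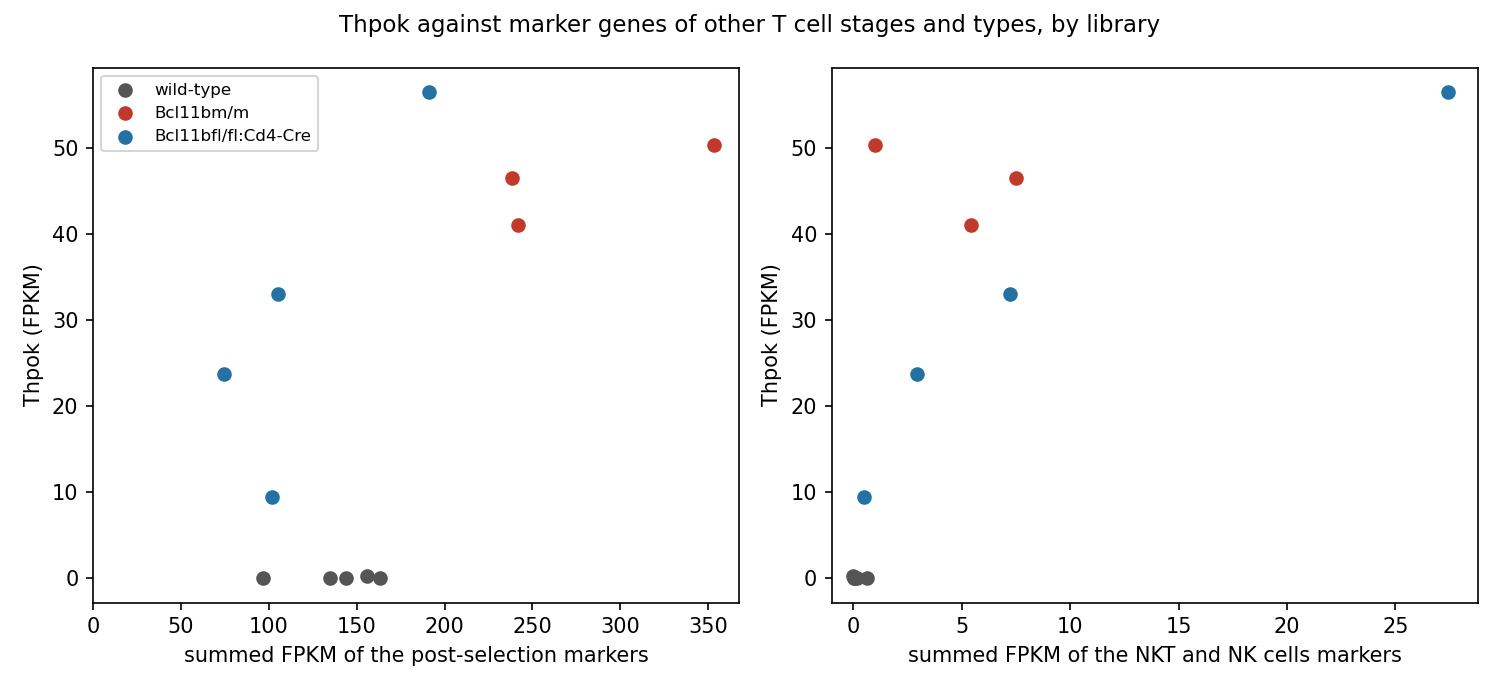
Thpok in FPKM against the summed FPKM of 8 post-selection markers (left) and of 4 NKT and NK markers (right) in each library of the 3 groups. On the left, the wild-type libraries lie at marker sums of 96.8 to 163 and at most 0.216 FPKM of Thpok. The HM libraries lie at sums of 238 to 354, wholly above wild-type, and 41.1 to 50.4 FPKM of Thpok. The cKO libraries lie at sums of 74.6 to 191 and 9.44 to 56.6 FPKM.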

How the data were processed

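The deposited table holds FPKM values per gene symbol, which the authors made with TopHat2 and Cufflinks on the mm9 build of the mouse genome, per the labels. All 12 columns were matched to libraries by title. Values were compared on log2(FPKM + 1) with limma 3.58.1 (R 4.3.3; moderated test with a trend, Benjamini-Hochberg adjustment over all features, threshold 0.05), 2 groups at a time, among the 10780 features that averaged 1 FPKM or more across all 12 libraries. The members and gene lists were chosen with earlier results of these data known. Named were all members, up to 5 called genes each of the region within 500 kb and of the list of Thpok regulators and targets per comparison, and the 5 features most correlated with Thpok. Gene positions came from GENCODE vM1 on NCBIM37, start windows from RefSeq (GRCm38.p6). Depth was estimated from the spacing of low FPKM values (60.3% to 69.5% were whole multiples within 0.1). Whole reads were not recovered, so no count test was run. The procedure was checked on simulated data. Alternatives covered pseudocount, filter, scaling, fit and single libraries.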

Additional observations from a re-analysis of the deposited data

Results flagged for a closer look

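Of 20 groups of 4 or 5 libraries checked for a value set apart from the rest (Dixon's criterion), which by chance flags about 1, Thpok and Lenep each gave 1. Thpok in wild-type library 3 was listed at 0.2155 FPKM, about 3 fragments, where the other wild-type libraries had 0 or about 1. Lenep in wild-type library 4 was listed at 6.83 FPKM, where the next highest wild-type library had 3.09. No explanation was tested.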

How the results depend on the processing

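Thpok kept its call against wild-type under every alternative. Its change exceeded that of 5 of 5 tested neighbours without any single library, but 99.5% of all features in HM and 99.7% in cKO pass that test. The count therefore says little about stability. Calls below are counts of the members (6 tested, 8 without the filter) and of the 19 other genes within 500 kb. In HM, 1 member was called in the main analysis and 2 with median-ratio scaling, quantile normalization, library quality weights, no filter, or no filter with a pseudocount of 0.1, the last chosen after seeing the data; leaving out single libraries gave 1 to 2. The 4 region genes became 9 with quality weights and 2 to 5 without single libraries. In cKO, 2 members became 4 with median-ratio scaling, 5 with quantile normalization or quality weights and 2 to 3 without single libraries, and 4 region genes became 7, 7, 8 and 2 to 7. Between the mutants, 0 members became 1 with no filter (Adam15) or quality weights and stayed 0 without single libraries; 0 neighbours differing from Thpok became 4 with quality weights (0 to 0 without single libraries); the 1 region gene became 0 with all 3 groups in a single fit and 0 to 1 without single libraries. Shc1 between the mutants changed sign, from 0.08 to -0.035 with median-ratio scaling, and lay between -0.010 (without cKO library 2) and 0.187 without single libraries. The causes were not tested.

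The replicate numbers do not pair the libraries (same-numbered deviations correlated at -0.21 to 0.15). With the replicate block, calls of members fell to 1 in cKO, where Cks1b had an adjusted p of 0.0575, and calls of region genes to 1 in HM (Gm15417, with Pbxip1 at 0.0733), 2 in cKO (Pbxip1 and Fdps, with Gm15417 at 0.0617) and 0 between the mutants. Of the Thpok list, the block ended every call (Runx3 at 0.117 and Cd4 at 0.162 in HM, Prf1 at 0.0506 between the mutants) except that of Runx3 in cKO. Over all features, the block gave 283, 456 and 30 calls and quality weights 3604, 3176 and 2173, against 1866, 1564 and 1102. A mean of at least 5 FPKM gave 1189 in HM and 656 between the mutants, and leaving out single libraries 1021 (without HM library 2) to 2349 in HM, 700 (without cKO library 1) to 2678 (without wild-type library 1) in cKO and 313 (without HM library 3) to 1121 between the mutants, so the shares of all features called move with single libraries.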
